A study of Canis lupus familiaris with 12 samples.

Results

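The genes of cholesterol and fatty acid synthesis were examined in MDCKII cells, a polarized epithelial cell line from dog kidney. The rule named 32 genes by their known place in the SREBP-controlled pathways. No measured value entered the rule, but the genes were chosen with earlier results of these data known. Of these, 31 were found in the deposited table and all 31 passed the filter of more than 1 CPM (reads per 1000000 reads) in at least 3 libraries, out of 13672 genes listed and 12650 genes tested. FADS1 was found under neither its symbol nor its gene ID and was not analysed here. SREBF2 stands in the table under a locus name and was matched by its RefSeq gene ID.

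RNASeq libraries were made from 4 genotypes with 3 libraries each, 12 in all. WT cells were compared with CGN-KO cells (no cingulin), CGNL1-KO cells (no paracingulin), and CGN/CGNL1 double-KO cells, here called double-KO. Cingulin and paracingulin are related junctional proteins that link tight and adherens junctions to the actomyosin cytoskeleton. The KO cells were made by CRISPR/Cas9 editing, each KO genotype was represented by 1 line, and no library came from treated cells, so a difference between genotypes and a difference between lines cannot be told apart. A double-KO column of the table has no replicate number and is called unnumbered. The labels do not say whether replicates were separate cultures, so p-values measure the spread between these libraries, which may be technical.

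Cells make cholesterol from acetyl-CoA by way of mevalonate, farnesyl diphosphate, squalene, and a series of sterol ring intermediates, and they make fatty acids from the same acetyl-CoA by carboxylation, chain building, elongation, and desaturation. Both pathways are driven by the SREBP transcription factors, which are made as membrane proteins of the endoplasmic reticulum. When sterols are low, SCAP escorts the SREBP precursors to the Golgi apparatus for cleavage, and when sterols are high, the INSIG proteins hold SCAP back. INSIG1 and the SREBF genes are themselves targets of the pathway, and in epithelia the products go largely into membranes.

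Library depth was 16837532 to 30086076 recovered reads, and 129 (PMVK) to 26705 (SCD) reads stood behind a single value of a pathway gene. The targeted genes followed the labels. CGNL1 was also called lower in the CGN-KO line than in WT, although that label names only CGN (log2 change -0.61). CGN was at 47.0 to 56.5 CPM in CGN-KO and 39.7 to 45.3 CPM in double-KO libraries, and at 198 to 233 CPM in the other libraries. CGNL1 was at 1.76 to 3.02 CPM in CGNL1-KO, 1.11 to 1.76 CPM in double-KO, 5.04 to 6.92 CPM in the CGN-KO line, and 7.74 to 12.3 CPM in WT libraries. All 10 kidney epithelial markers were listed, and their summed level was 5936 to 6097 CPM in WT, 5931 to 6049 CPM in CGNL1-KO, 5687 to 5739 CPM in CGN-KO, and 5710 to 5831 CPM in double-KO libraries, the latter groups below WT without overlap. By gene (limma adjusted p below 0.05), 4 of the 10 rose and 3 fell in CGN-KO cells, against 11.2% and 7.87% of all tested genes. In the CGNL1-KO line 2 rose and 1 fell, against 6.81% and 3.49% of all genes. In double-KO cells 3 rose and 3 fell, against 14.8% and 11.5% of all genes. Markers of other cell types were few and low: of 7 fibroblast markers only PDGFRA was listed (2.705 to 11.1 CPM), of 5 endothelial markers only VWF and KDR (summed level 0.690 to 2.98 CPM), of 6 adipocyte and hepatocyte markers only PLIN1 (0.177 to 0.883 CPM), and of 5 immune markers none. PDGFRA rose in the CGN-KO line (5.88 to 11.1 CPM against 2.705 to 5.48 CPM in WT, log2 change 0.81), a call that DESeq2 did not make. KDR fell by 0.96 in double-KO cells. It rose by 0.46 in the CGNL1-KO line, a call that edgeR and DESeq2 did not make. The part of these markers in the results was not tested.

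Loss of both cingulin and paracingulin went with higher transcript levels of most of these genes, by amounts below 2-fold. In double-KO cells 20 of 31 genes rose and 2 fell against WT, a share of 64.5% higher and 6.45% lower, whereas 14.8% of all tested genes rose and 11.5% fell (limma on log2(CPM + 1), Benjamini-Hochberg adjusted p below 0.05 at any fold). In CGN-KO cells 9 genes rose and 1 fell (29.0% and 3.23%, against 11.2% and 7.87% of all genes), and in the CGNL1-KO line 9 rose and 1 fell (29.0% and 3.23%, against 6.81% and 3.49% of all genes). The 10 calls of the CGN-KO line became 16 with the replicate number as a block, a fit without the unnumbered double-KO library. The 10 calls of the CGNL1-KO line became 5 without CGNL1-KO library 3, 6 without WT library 3, and 6 when only the WT and CGNL1-KO libraries were fitted. These 3 comparisons share the WT libraries and are not independent of each other.

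**Figure D1:**
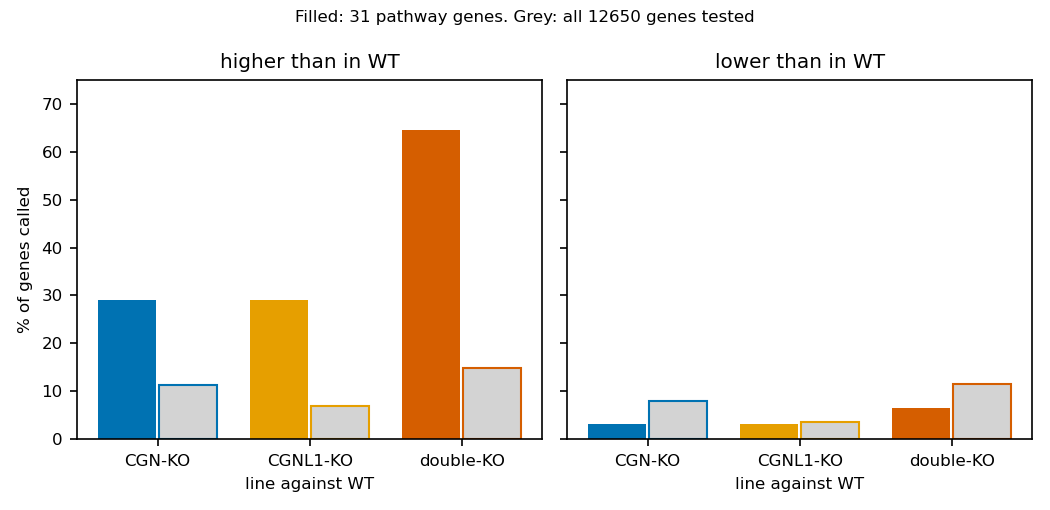
Share of genes called higher (left) and lower (right) than in WT, in percent of the genes tested, for each KO line. Filled bars are the 31 pathway genes and grey bars are all 12650 genes tested, and the tallest bar is the 64.5% of pathway genes called higher in double-KO cells beside 14.8% of all genes.

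The median log2 change of the 31 genes was 0.24 in double-KO cells, 0.15 in the CGN-KO line, and 0.12 in the CGNL1-KO line, and the median over all tested genes was -0.00036, -0.0039, and -0.0031. The size of the changes was small throughout. At 2-fold or more limma called 0 of the 31 genes in each of the 3 comparisons, edgeR and DESeq2 also called 0, and 1.31%, 0.617%, and 1.41% of all genes were called in CGN-KO, CGNL1-KO, and double-KO cells. At an unadjusted p below 0.05 and any fold, 19, 16, and 23 of the 31 genes differed from WT, against 32.5%, 22.6%, and 37.6% of all genes. Differences of this size could be read because the replicates lay close together: the median within-genotype SD of the 31 genes was 0.0814 on the log2 scale, against 0.104 for all tested genes and 0.0897 for the 9503 genes in the same range of levels. SREBF2 had the smallest SD of the group (0.0395) and FASN the largest (0.155).

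Across both pathways the double-KO level was most often the highest. The double-KO mean was the highest of the 4 genotype means in 22 of 31 genes, as it was for 28.4% of all genes, and the WT mean was the lowest in 23 of 31 genes, as it was for 30.3% of all genes. All 3 double-KO values lay above all 3 WT values in 23 genes (23.2% of all genes) and below them in 2 genes (21.8% of all genes). A difference of any kind among the 4 genotypes was called in 23 of 31 genes by the limma F test, against 29.9% of all genes, and in 15 without WT library 2, the unnumbered double-KO library, or double-KO library 3. HMGCS1, TM7SF2, DHCR7, ACACA, and FADS2 rose in all 3 KO lines, and SCD fell in all 3. ACSS2, CYP51A1, ELOVL6, IDI1, SC5D, SQLE, and STARD4 were called in none.

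**Figure D2:**
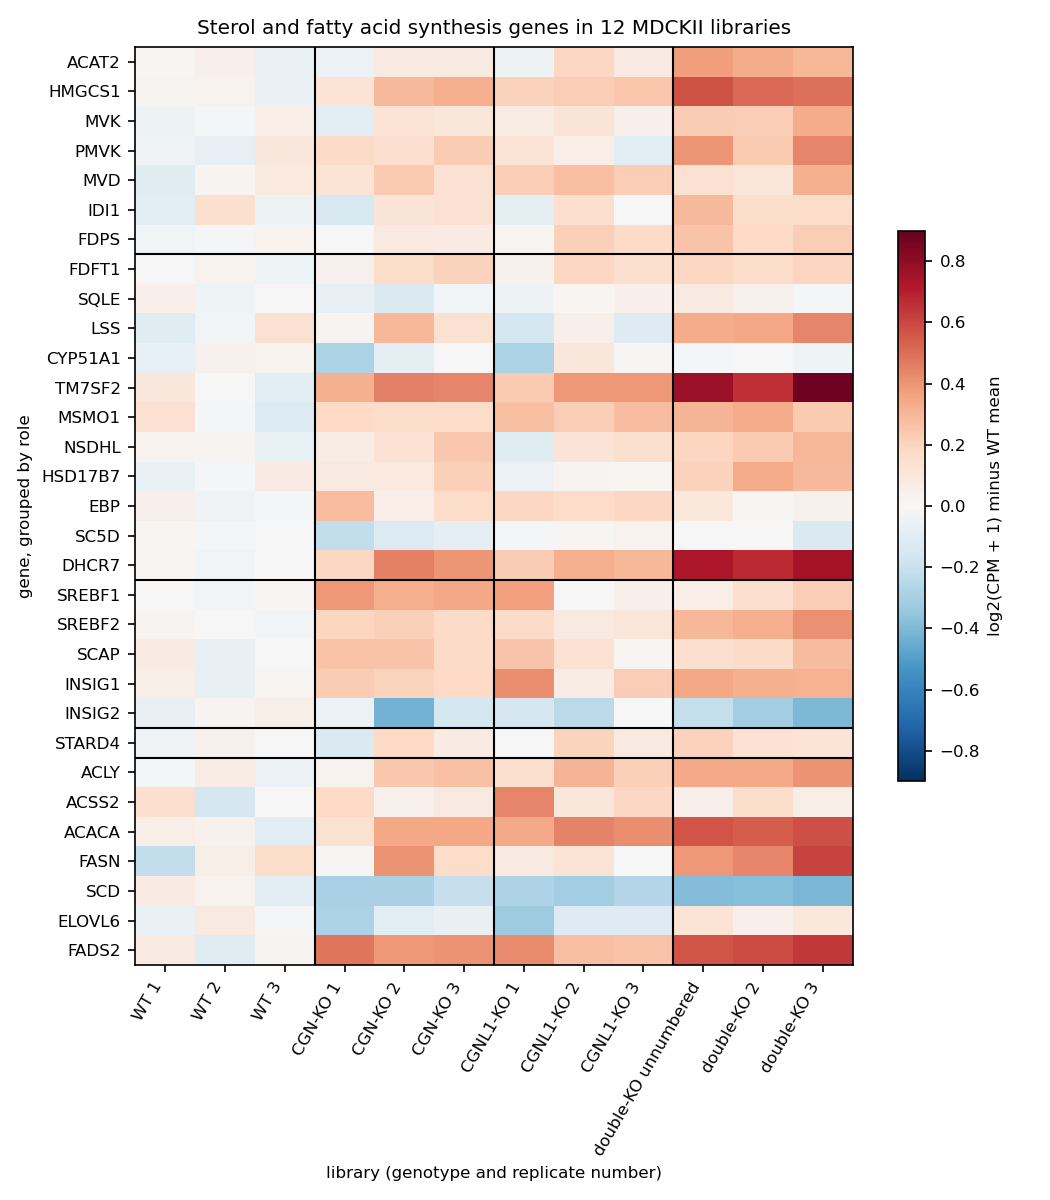
Level of each of the 31 genes (rows, grouped by role with black lines between roles) in each of the 12 libraries (columns), as log2(CPM + 1) minus the mean of the 3 WT libraries. Red is higher and blue is lower than WT, the color scale runs from -0.9 to 0.9, and the 3 double-KO columns are red in most rows, with SCD and INSIG2 in blue.

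The steps from acetyl-CoA to farnesyl diphosphate are catalyzed by 7 of the genes. In double-KO cells 6 of the 7 rose, against 14.8% of all tested genes, and the median log2 change of the 7 was 0.26. HMGCS1, which joins acetyl-CoA to acetoacetyl-CoA to make HMG-CoA, was at 382, 384, and 360 CPM in WT libraries 1 to 3. Its levels were 409, 459, and 472 CPM in CGN-KO, 434, 437, and 446 CPM in CGNL1-KO, and 558, 535, and 531 CPM in double-KO libraries (unnumbered, 2, and 3). Every KO library was above every WT library, and every double-KO library was above every single-KO library. The log2 change of HMGCS1 was 0.53 ± 0.0572 (SE; 1.44-fold, limma adjusted p = 5.46e-06) in double-KO, 0.25 ± 0.0572 (adjusted p = 0.00596) in the CGN-KO line, and 0.23 ± 0.0572 (adjusted p = 0.018) in the CGNL1-KO line. HMGCS1 and the other genes given in every library below 1.5-fold, except the SREBP genes and their regulators, were chosen after their values were seen.

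ACAT2, the cytosolic thiolase of the first step, rose by 0.34 on the log2 scale in double-KO cells (limma adjusted p = 0.000796), with 404 to 426 CPM against 314 to 338 CPM in WT, and its single-KO changes of 0.04 and 0.07 did not pass the test. The kinases MVK and PMVK, which phosphorylate mevalonate in turn, rose by 0.26 and 0.36 in double-KO cells. PMVK was the gene with the fewest reads, at 9.33 to 10.9 CPM in double-KO and 7.34 to 8.41 CPM in WT libraries. MVD, the decarboxylase that yields isopentenyl diphosphate, rose by 0.19 in double-KO and by 0.24 in the CGNL1-KO line, and FDPS, which condenses the isoprene units to farnesyl diphosphate, rose by 0.22 in double-KO cells. IDI1, the isomerase between these steps, had a log2 change of 0.21 in double-KO cells (95% interval 0.03 to 0.38, adjusted p = 0.0777), and its 3 double-KO values of 386 to 423 CPM lay above the WT values of 323 to 381 CPM.

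The squalene and sterol ring steps are catalyzed by 11 of the genes. Of these, 7 rose in double-KO cells (median log2 change 0.24) and 3 rose in each single-KO line. The matching shares of all tested genes were 14.8% (double-KO), 11.2% (CGN-KO), and 6.81% (CGNL1-KO). TM7SF2, a reductase of the sterol ring in the endoplasmic reticulum membrane, had the largest log2 change of the 31 genes in double-KO cells. It was at 39.6, 36.6, and 34.2 CPM in WT, 46.1, 50.7, and 50.1 CPM in CGN-KO, 43.4, 48.4, and 48.5 CPM in CGNL1-KO, and 63.7, 58.5, and 68.1 CPM in double-KO libraries. The WT, single-KO, and double-KO values formed 3 ranges that did not overlap. The log2 change of TM7SF2 was 0.77 ± 0.0738 in double-KO (1.70-fold, limma adjusted p = 1.47e-06), 0.40 ± 0.0738 in CGN-KO (adjusted p = 0.001), and 0.34 ± 0.0738 in the CGNL1-KO line (adjusted p = 0.00692).

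DHCR7, the reductase of the last step to cholesterol, had the same order. Its levels were 118, 115, and 117 CPM in WT, 133, 160, and 154 CPM in CGN-KO, 137, 147, and 144 CPM in CGNL1-KO, and 194, 187, and 197 CPM in double-KO libraries. The groups again did not overlap between WT, single-KO, and double-KO, while both single-KO ranges overlapped each other. DHCR7 rose by 0.72 ± 0.0618 in double-KO (1.64-fold, limma adjusted p = 4.89e-07), 0.34 ± 0.0618 in CGN-KO (adjusted p = 0.000848), and 0.28 ± 0.0618 in the CGNL1-KO line (adjusted p = 0.00676).

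LSS, which closes squalene epoxide to the first sterol, was at 150, 159, and 178 CPM in WT, 165, 200, and 178 CPM in CGN-KO, 145, 168, and 149 CPM in CGNL1-KO, and 204, 207, and 220 CPM in double-KO libraries. The double-KO values stood above all others, and the remaining groups overlapped. LSS rose in double-KO cells by 0.37 ± 0.0773 (limma adjusted p = 0.002). MSMO1, NSDHL, and HSD17B7, which together remove methyl groups from the ring, rose by 0.29, 0.24, and 0.28 in double-KO cells, and FDFT1, which makes squalene, rose by 0.18. MSMO1 also rose in the CGNL1-KO line, by 0.26. EBP, the sterol isomerase, rose in CGN-KO cells by 0.17 (adjusted p = 0.0479) and had a change of 0.05 (adjusted p = 0.569) in double-KO cells.

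Other enzymes of the ring steps did not pass the test. SQLE, the epoxidase that is often taken as rate limiting in this branch, was at 514 to 546 CPM in WT and 522 to 559 CPM in double-KO libraries, with a log2 change of 0.03 and a 95% interval of -0.08 to 0.14. CYP51A1, the lanosterol demethylase, had a change of -0.01 (-0.20 to 0.17), and SC5D, a desaturase of the ring, -0.04 (-0.16 to 0.07). For these 3 genes the interval leaves out a change as large as that of LSS. The ratio of HMGCS1 to SQLE within a library was 0.682 to 0.746 in WT and 0.815 to 0.949 in the CGN-KO line. It was 0.816 to 0.847 in the CGNL1-KO line and 0.982 to 1.02 in the double-KO line, and WT overlapped with no KO line. HMGCS1 was chosen after its values were seen, and the ratio restates the levels of both genes, so it is given as a description.

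**Figure D3:**
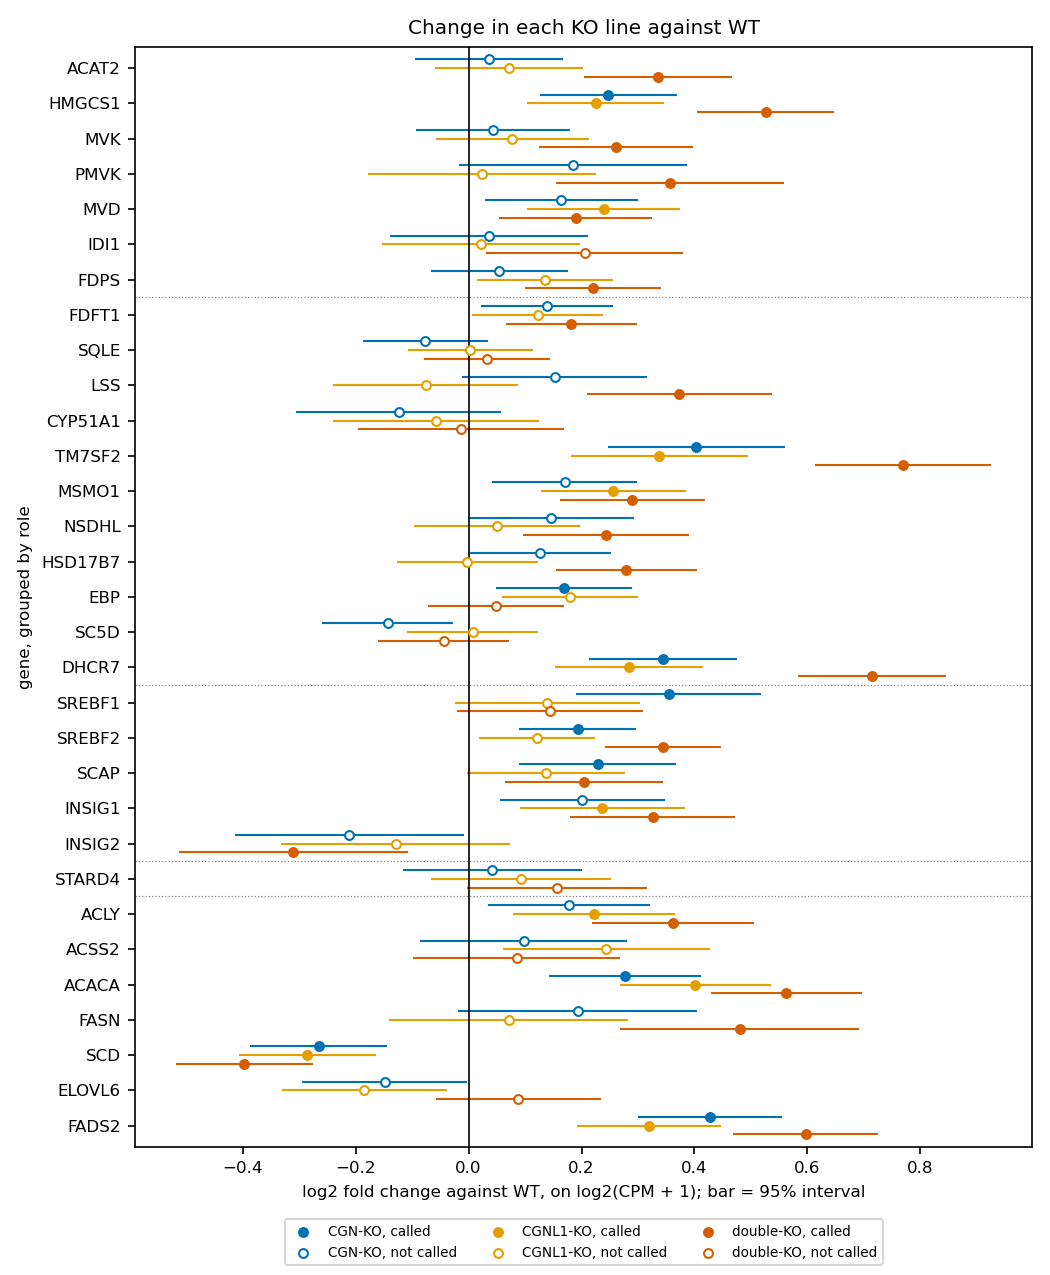
Log2 fold change against WT on log2(CPM + 1) for each of the 31 genes (grouped by role from top to bottom, with dotted lines between roles), with the 95% interval of the limma fit of all 12 libraries as a bar. Filled points passed the adjusted p threshold and open points did not; in double-KO cells the points run from -0.40 for SCD to 0.77 for TM7SF2.

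Of 5 tested genes that encode SREBP proteins and their regulators, 3 rose and 1 fell in double-KO cells. In CGN-KO cells 3 rose, and 1 rose in the CGNL1-KO line. Among all tested genes 14.8% rose and 11.5% fell in double-KO cells, and 11.2% and 6.81% rose in CGN-KO and CGNL1-KO cells. A single call among 5 genes cannot be set apart from these shares. SREBF2, which encodes the SREBP that mainly drives sterol synthesis, was at 349, 344, and 337 CPM in WT, 392, 398, and 387 CPM in CGN-KO, 386, 363, and 371 CPM in CGNL1-KO, and 423, 430, and 456 CPM in double-KO libraries. Every KO value was above every WT value, and the double-KO values were above all others. SREBF2 rose by 0.34 ± 0.0486 in double-KO (1.27-fold, limma adjusted p = 7.58e-05) and by 0.19 ± 0.0486 in CGN-KO cells (adjusted p = 0.0103).

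SREBF1, which encodes the SREBP forms of fatty acid synthesis, did not follow that order. Its levels were 99.2, 97.0, and 100 CPM in WT, 130, 124, and 126 CPM in CGN-KO, 128, 99.0, and 102 CPM in CGNL1-KO, and 103, 110, and 116 CPM in double-KO libraries. The CGN-KO values were the highest apart from CGNL1-KO library 1, which lay among them and far from the other CGNL1-KO libraries. SREBF1 rose by 0.35 ± 0.0773 in CGN-KO cells (1.28-fold, limma adjusted p = 0.00399), and its change in double-KO cells was 0.14 (95% interval -0.02 to 0.31, adjusted p = 0.187). The difference between double-KO and CGN-KO cells, -0.21, did not pass the test (adjusted p = 0.112).

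SCAP, the escort of the SREBP precursors, was at 67.9, 61.5, and 64.4 CPM in WT, 77.3, 77.4, and 72.9 CPM in CGN-KO, 77.3, 71.2, and 65.4 CPM in CGNL1-KO, and 71.8, 73.0, and 79.0 CPM in double-KO libraries. Only the CGNL1-KO values overlapped WT. SCAP rose by 0.23 (limma adjusted p = 0.0221) in CGN-KO and by 0.20 (adjusted p = 0.0302) in double-KO cells.

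The INSIG genes went in opposite directions in double-KO cells. INSIG1, itself a target of the SREBPs, was at 255, 234, and 248 CPM in WT, 287, 282, and 278 CPM in CGN-KO, 328, 258, and 287 CPM in CGNL1-KO, and 312, 307, and 305 CPM in double-KO libraries, so that each KO value was above each WT value. It rose by 0.33 ± 0.0689 in double-KO (limma adjusted p = 0.0023) and by 0.24 ± 0.0689 in the CGNL1-KO line (adjusted p = 0.0379). INSIG2, which is not a typical SREBP target, was at 25.4, 27.3, and 27.9 CPM in WT, 25.8, 19.8, and 24.0 CPM in CGN-KO, 24.1, 22.5, and 27.0 CPM in CGNL1-KO, and 23.01, 21.44, and 20.01 CPM in double-KO libraries. Only the double-KO values lay wholly below WT, and INSIG2 fell by 0.31 on the log2 scale there (limma adjusted p = 0.0245). The INSIG1 to INSIG2 ratio was 9.17 ± 0.762 in WT and 14.4 ± 0.825 in double-KO cells (SD, n = 3), given as a description.

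STARD4, which carries sterol between membranes, was at 53.7 to 56.6 CPM in WT and 60.1 to 63.7 CPM in double-KO libraries, without overlap, and its change of 0.16 did not pass the test (limma adjusted p = 0.139).

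**Figure D4:**
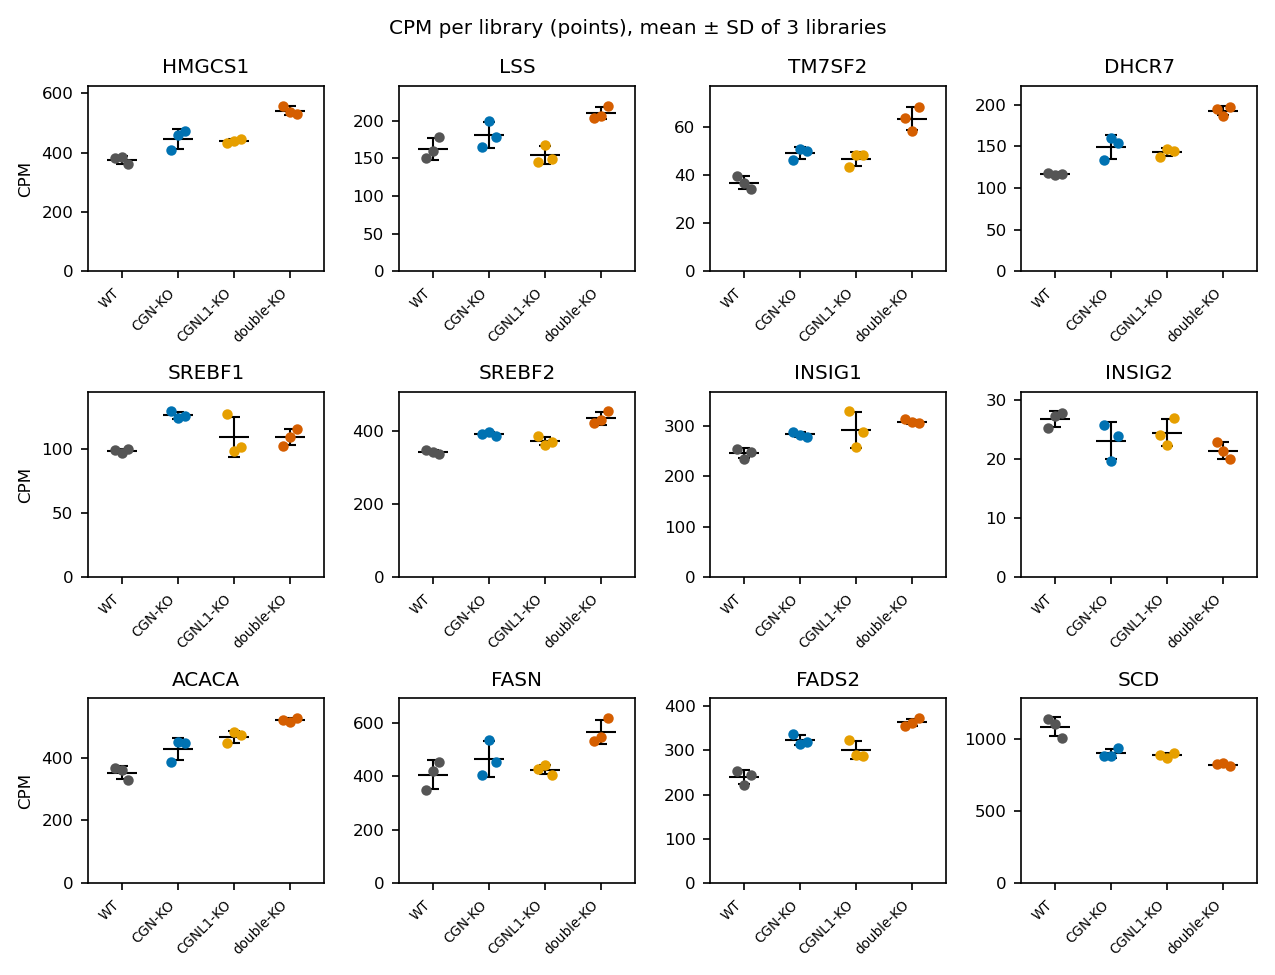
CPM of 12 genes in each library (points, colored by genotype), with the mean and SD of the 3 libraries of a genotype as a line and bars, on axes that start at 0. From left to right each panel shows WT, CGN-KO, CGNL1-KO, and double-KO, and the double-KO points are the highest in HMGCS1, LSS, TM7SF2, DHCR7, SREBF2, ACACA, and FADS2 and the lowest in SCD.

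Of 7 measured genes of fatty acid synthesis and desaturation, 4 rose and 1 fell in double-KO cells (median log2 change 0.36), against 14.8% and 11.5% of all tested genes. In CGN-KO cells 2 rose and 1 fell, against 11.2% and 7.87% of all genes. In the CGNL1-KO line 3 rose and 1 fell, against 6.81% and 3.49% of all genes. ACACA, the carboxylase that commits acetyl-CoA to fatty acids, was at 366, 361, and 329 CPM in WT, 386, 449, and 447 CPM in CGN-KO, 445, 480, and 471 CPM in CGNL1-KO, and 520, 514, and 526 CPM in double-KO libraries. No KO value reached down to WT, and the double-KO values were above all single-KO values. ACACA rose by 0.56 ± 0.0632 in double-KO (1.48-fold, limma adjusted p = 7.68e-06), 0.28 ± 0.0632 in CGN-KO (adjusted p = 0.00551), and 0.40 ± 0.0632 in the CGNL1-KO line (adjusted p = 0.000499).

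FASN, the synthase that builds the chain, had the widest spread between replicates. It was at 346, 419, and 452 CPM in WT, 405, 535, and 452 CPM in CGN-KO, 427, 440, and 405 CPM in CGNL1-KO, and 529, 548, and 615 CPM in double-KO libraries. The double-KO values overlapped with CGN-KO library 2 only. FASN rose by 0.48 ± 0.0998 in double-KO cells (limma adjusted p = 0.00205). ACLY, which supplies cytosolic acetyl-CoA from citrate, rose by 0.36 in double-KO (adjusted p = 0.000869) and by 0.22 in the CGNL1-KO line (adjusted p = 0.0462), whereas ACSS2, which supplies it from acetate, had changes of 0.09 to 0.24 that did not pass the test.

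The desaturases differed in direction. FADS2, a desaturase of polyunsaturated fatty acid synthesis, was at 253, 222, and 244 CPM in WT, 335, 315, and 317 CPM in CGN-KO, 322, 290, and 286 CPM in CGNL1-KO, and 355, 360, and 372 CPM in double-KO libraries. All KO values lay above WT. FADS2 rose by 0.60 ± 0.0601 in double-KO (1.51-fold, limma adjusted p = 2.59e-06), 0.43 ± 0.0601 in CGN-KO (adjusted p = 9.7e-05), and 0.32 ± 0.0601 in the CGNL1-KO line (adjusted p = 0.00227).

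SCD, the desaturase that makes oleate and palmitoleate and is a well-known SREBP target, moved the other way. Its levels were 1134, 1103, and 1007 CPM in WT, 880, 881, and 935 CPM in CGN-KO, 889, 870, and 901 CPM in CGNL1-KO, and 822, 829, and 810 CPM in double-KO libraries. All 9 KO libraries were below all WT libraries, and the double-KO libraries were the lowest. SCD fell by 0.40 on the log2 scale in double-KO (1.32-fold lower, limma adjusted p = 8.88e-05), by 0.27 in CGN-KO (adjusted p = 0.00352), and by 0.29 in the CGNL1-KO line (adjusted p = 0.0036).

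Ratios within a library do not depend on its scaling. The SCD to ACACA ratio was 3.095, 3.060, and 3.056 in WT, 2.28, 1.96, and 2.09 in the CGN-KO libraries, 1.998, 1.811, and 1.914 in the CGNL1-KO libraries, and 1.58, 1.61, and 1.54 in the double-KO libraries. The WT and double-KO groups stood apart from each other and from both single-KO groups. This pair of genes was chosen after its values were seen, and with 3 libraries a group no exact permutation test can go below p = 0.1, so the ratios are given as a description. The SCD to FADS2 ratio had a mean of 4.52 ± 0.42 in WT and 2.26 ± 0.0747 in double-KO cells, with the CGN-KO line at 2.79 ± 0.16 and the CGNL1-KO line at 2.97 ± 0.199 (SD, n = 3). ELOVL6, the elongase that supplies stearate to SCD, was at 160 to 176 CPM in WT, 136 to 159 CPM in CGN-KO, 133 to 154 CPM in CGNL1-KO, and 171 to 181 CPM in double-KO libraries, and no change against WT passed the test.

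The KO lines were also compared with each other. Against CGN-KO, 7 of 31 genes were higher in double-KO cells (4.93% of all genes): ACACA, ACAT2, DHCR7, ELOVL6, HMGCS1, MVK, and TM7SF2. This count was 11 without CGNL1-KO library 1 and 11 when only the genotypes compared were fitted. Against CGNL1-KO, 11 of 31 were higher (8.12% of all genes), namely ACAT2, DHCR7, ELOVL6, FADS2, FASN, HMGCS1, HSD17B7, LSS, PMVK, SREBF2, and TM7SF2. The largest of these differences were 0.45 ± 0.0773 for LSS (adjusted p = 0.00105) and 0.43 ± 0.0618 for DHCR7 (adjusted p = 0.000223), both against CGNL1-KO. Limma called 0 genes lower in double-KO than in CGN-KO (3.91% of all genes) and 0 lower than in CGNL1-KO (6.29% of all genes). EdgeR and DESeq2 called 0 in both. At an unadjusted p below 0.05, 2 and 1 of the 31 genes were lower. At that threshold 22.2% and 27.1% of all genes differed in either direction.

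CGN-KO and CGNL1-KO cells were not told apart by a call in these genes. Limma called 0 of 31 in either direction (5.19% of all genes), 4 had an unadjusted p below 0.05 (17.4% of all genes), and edgeR and DESeq2 called 0. The 95% intervals of the 31 differences reached from -0.33 (ACSS2) to 0.39 (LSS) on the log2 scale, and differences of up to that size lie within them. Libraries of the same replicate number deviated together in these 2 lines, and with the replicate number as a block LSS (0.23, adjusted p = 0.0169) and SREBF1 (0.21, adjusted p = 0.0289) were called higher in CGN-KO cells.

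Some chromosomes were shifted as a whole. Chromosomes were taken from the RefSeq dog annotation (assembly UU_Cfam_GSD_1.0) for 94% of the tested genes and are named by genes they hold. In double-KO cells the 401 tested genes of the chromosome that holds TM7SF2, DHCR7, and FADS2 had a median log2 change of 0.30 against WT, compared with 0.09 in the CGN-KO and 0.052 in the CGNL1-KO line. The chromosome of ACAT2 (700 genes) had a median of 0.20 in double-KO cells and 0.0075 and 0.0038 in the single-KO lines, and that of ACSS2 (318 genes) 0.16 in double-KO, 0.19 in the CGN-KO line, and 0.20 in the CGNL1-KO line. For the other 26 genes the chromosome median was at most 0.0747 in size in double-KO cells (the chromosome of CYP51A1).

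With the chromosome median taken off, TM7SF2 was 0.47 (limma adjusted p = 0.000181), DHCR7 0.41 (adjusted p = 8.93e-05), and FADS2 0.30 (adjusted p = 0.00274) above WT in double-KO cells, and these genes were still called in all 3 lines. ACAT2 kept 0.14 (adjusted p = 0.137) and INSIG2 -0.24 (adjusted p = 0.0684), which no longer passed. SCAP also lost its call, at 0.17 in double-KO (adjusted p = 0.0604) and 0.18 in CGN-KO cells (adjusted p = 0.061), and ACLY lost its call in the CGNL1-KO line (0.19, adjusted p = 0.0937). Calls were gained by MSMO1 (0.22) and INSIG1 (0.23) in CGN-KO cells and by EBP (0.19) in the CGNL1-KO line. The 5 genes on the shifted chromosomes had a median log2 change of 0.60 in double-KO cells with 4 called. The other 26 genes had a median of 0.21 with 16 called higher, against 14.8% of all tested genes. The share called among all genes of the shifted chromosomes was not counted. Of the 7 genes higher in double-KO than in CGN-KO cells, HMGCS1 (0.29, adjusted p = 0.00729) and ACACA (0.30, adjusted p = 0.00971) passed after the chromosome medians were taken off. ACLY, ACACA, and FASN share a chromosome of 751 tested genes whose median was 0.022 in double-KO cells.

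**Figure D5:**
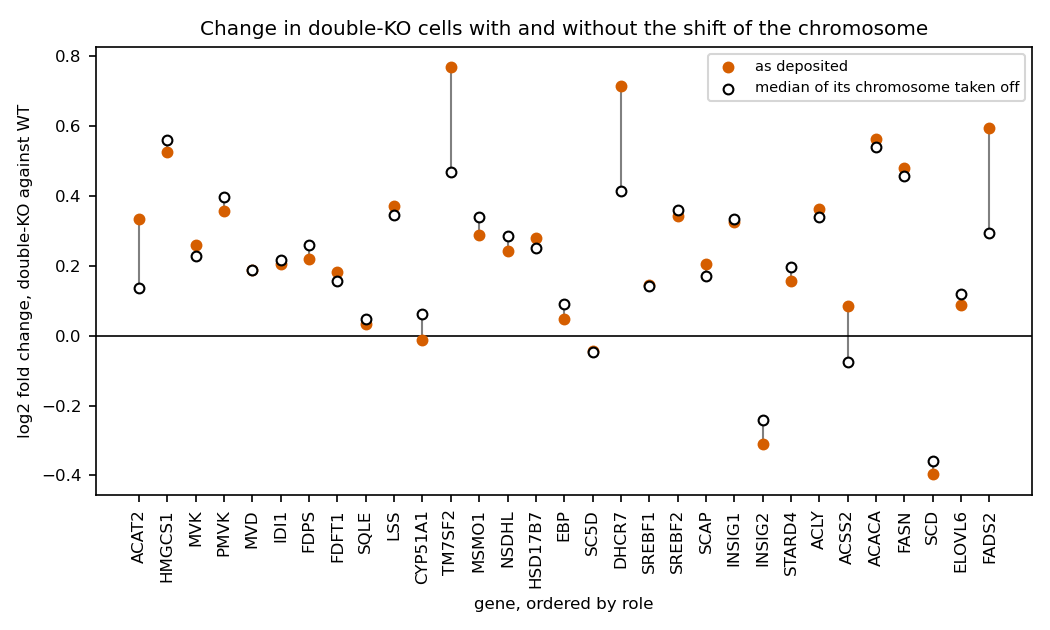
Log2 fold change of each of the 31 genes in double-KO cells against WT (vertical axis) as deposited (filled) and after the median change of the tested genes on its chromosome was taken off (open), in order of role. TM7SF2, DHCR7, FADS2, and ACAT2 moved toward 0, to 0.47, 0.41, 0.30, and 0.14, whereas HMGCS1 and ACACA stayed at 0.56 and 0.54.

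Proliferation and stress genes were read in the same libraries, because lipid synthesis also varies with growth and stress. The summed level of 8 proliferation genes was 1196 to 1204 CPM in double-KO and 1051 to 1124 CPM in WT libraries, without overlap, and 1013 to 1124 CPM in CGN-KO and 988 to 1160 CPM in CGNL1-KO libraries. Of these genes AURKA (0.30) and TOP2A (0.22) rose in double-KO cells, and AURKA was the 1 called in each single-KO line (0.27 in CGN-KO and 0.26 in CGNL1-KO). AURKA lies on the chromosome of ACSS2. With the chromosome median taken off it was at 0.14, 0.08, and 0.06 in double-KO, CGN-KO, and CGNL1-KO cells and was not called. The proliferation list then had 2 genes higher in double-KO cells, a count without AURKA, and 0 in each single-KO line. Of 7 amino acid and endoplasmic reticulum stress genes listed, HSPA5 rose (0.32) in double-KO cells. DDIT3, TRIB3, and ASNS fell there (-0.67, -0.58, and -0.39). In CGN-KO cells 3 of the 7 fell, and 1 rose and 2 fell in the CGNL1-KO line. Of all tested genes, 14.8% were higher and 11.5% lower (double-KO), 11.2% and 7.87% (CGN-KO), and 6.81% and 3.49% (CGNL1-KO). The 1 or 2 proliferation calls among 8 genes cannot be set apart from these shares. The part of the proliferation and stress gene differences, and of the chromosome shifts, in the levels of the lipid genes was not tested. In bulk RNA, fewer cells of one state and less RNA per cell cannot be told apart.

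Other genes of sterol metabolism were counted by list. The shares of all tested genes that rose and fell were 14.8% and 11.5% for double-KO, 11.2% and 7.87% for the CGN-KO line, and 6.81% and 3.49% for the CGNL1-KO line, and a list count near these shares is not a result about the list. Of 11 further sterol synthesis and SREBP target genes, 4 rose in double-KO, 3 rose and 1 fell in the CGN-KO line, and 1 rose in the CGNL1-KO line (median log2 change 0.12, 0.083, and 0.082). TMEM97, a sterol-regulated membrane protein, rose in all 3 lines (0.39, 0.29, and 0.30 in the same order), and NPC1L1, a sterol importer of apical membranes, rose by 0.44 in double-KO and 0.58 in CGN-KO cells. Of 12 genes of SREBP processing and sterol-regulated degradation, 3 rose and 1 fell in double-KO cells (median 0.12): the ubiquitin ligase SYVN1 rose by 0.41, the deubiquitinase USP20 by 0.29, and the site-2 protease MBTPS2 fell by 0.22. In CGN-KO cells 1 of the 12 fell (RNF139, -0.23). The single genes lower in each line are near the 11.5% and 7.87% of all genes. SYVN1 lies on the chromosome that holds DHCR7, and with the chromosome median taken off its change was 0.11 (limma adjusted p = 0.176), while MBTPS2 (-0.18) and RNF139 (-0.21) also no longer passed. TMEM97, NPC1L1, and USP20 were still called.

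Of 20 tested genes of cholesterol uptake, storage, transport, and efflux, 6 rose and 1 fell in double-KO, 4 rose and 1 fell in the CGN-KO line, and 2 rose in the CGNL1-KO line, with medians of 0.13, 0.11, and 0.11, beside 14.8% and 11.5%, 11.2% and 7.87%, and 6.81% and 3.49% of all genes. ABCA1, the cholesterol efflux pump, rose by 1.08 on the log2 scale in CGN-KO cells (limma adjusted p = 0.000242). Its log2 change was 0.42 in double-KO cells and 0.40 in the CGNL1-KO line, and the CGNL1-KO change did not pass the test. OSBPL2, a lipid transfer protein, rose in all 3 lines (0.33 in double-KO, 0.58 in the CGN-KO line, and 0.37 in CGNL1-KO), NPC2, which hands on cholesterol in the lysosome, rose by 0.35 in CGN-KO and 0.34 in the CGNL1-KO line, and NCEH1, a cholesterol ester hydrolase, rose by 0.39 in double-KO cells. OSBPL2 lies on the chromosome of ACSS2, and with the chromosome median taken off it was at 0.17 in double-KO (limma adjusted p = 0.0955), 0.39 in the CGN-KO line (limma adjusted p = 0.00091), and 0.16 in the CGNL1-KO line (limma adjusted p = 0.174). The list then had 3 genes higher in double-KO, 4 in the CGN-KO line, and 1 in the CGNL1-KO line.

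Of 34 tested genes of fatty acid elongation, activation, and glycerolipid synthesis, 13 rose and 1 fell in double-KO, 11 rose and 1 fell in the CGN-KO line, and 6 rose in the CGNL1-KO line, with medians of 0.15, 0.15, and 0.094, beside the same shares of all genes. With the chromosome medians taken off 13, 9, and 5 rose. PLIN3, a lipid droplet coat protein, rose by 0.61 in CGN-KO cells, ACSL5, a fatty acid activating enzyme, rose by 0.53 in double-KO cells, and SLC25A1, the mitochondrial citrate exporter, rose by 0.23 in the CGNL1-KO line. ACACB, the carboxylase form that restrains fatty acid oxidation, fell by 0.53 in double-KO cells (limma adjusted p = 0.0374).

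Single libraries were examined for all 31 genes at once. In CGN-KO library 1, which was the deepest with 30086076 reads, 23 of 31 genes were below the mean of their group, with a median deviation of -0.081 on the log2 scale. The largest median deviation of another library was 0.043 (CGN-KO library 3). The median of the 31 genes minus the WT mean was 0.064, 0.16, and 0.16 in the CGN-KO libraries, 0.082, 0.13, and 0.080 in the CGNL1-KO libraries, and 0.23, 0.22, and 0.29 in the double-KO libraries, so that each double-KO library stood above each single-KO library. Without CGN-KO library 1, 10 genes were again called between CGN-KO and WT cells.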

How the data were processed

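RNASeq of 12 MDCKII libraries was taken from 1 deposited table. The authors aligned reads with STAR version 2.7.0f to canFam3, assigned them to genes with HTSeq version 0.9.1, and deposited a normalized signal in CPM (edgeR, TMM-scaled), stating that genes had to exceed 1 CPM in 3 or more libraries, which 1022 listed genes did not. Strand setting and annotation release are not given in the sources used here. Every deposited value was a whole number of reads (100% within 0.02 reads).

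Genotypes were compared on log2(CPM + 1) with limma version 3.58.1 (R version 4.3.3, eBayes with a trend, two-sided, 1 fit of all libraries, genotype only, Benjamini-Hochberg over 12650 genes). A fold change is on this scale and understates the change of low genes. Called means an adjusted p below 0.05. Alternatives were a pseudocount of 0.5, no filter, scaling by library totals, edgeR version 4.0.16 and DESeq2 version 1.42.0 on the recovered reads, a replicate block, only the genotypes compared, each library left out, and chromosome medians taken off. The scripts were tested on simulated data. Figures were drawn with matplotlib version 3.10.9.

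CGN-KO and CGNL1-KO libraries of the same number deviated together (r = 0.632, 0.475, and 0.179 over genes). WT libraries 1 and 2 also followed CGN-KO libraries 1 and 2 (r = 0.373 and 0.318) and CGNL1-KO libraries 1 and 2 (r = 0.329 and 0.371). WT library 3 followed neither CGN-KO library 3 (r = -0.082) nor CGNL1-KO library 3 (r = 0.011). The genes and lists were chosen with earlier results of these data known. Values in every library were to be given for genes called at 1.5-fold or more and for the SREBP genes and regulators, and up to 3 called genes of each further list were to be named by size of change, some of which are not reported here. No genome of the build used was at hand, so no sequence or coordinate is given, and levels are not compared between genes.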

Additional observations from a re-analysis of the deposited data

Results flagged for a closer look

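The difference between double-KO and single-KO cells was tested directly, and 18 such differences passed (limma adjusted p below 0.05, without overlap between the libraries of the lines compared). Against CGN-KO cells the log2 differences were 0.29 for ACACA, 0.30 for ACAT2, 0.37 for DHCR7, 0.24 for ELOVL6, 0.28 for HMGCS1, 0.22 for MVK, and 0.37 for TM7SF2. Against CGNL1-KO cells they were 0.26 for ACAT2, 0.43 for DHCR7, 0.27 for ELOVL6, 0.28 for FADS2, 0.41 for FASN, 0.30 for HMGCS1, 0.28 for HSD17B7, 0.22 for SREBF2, 0.45 for LSS, 0.33 for PMVK, and 0.43 for TM7SF2. ELOVL6 stands out because it was called in no line against WT: both single-KO means were below WT and the double-KO mean was above it. DHCR7, TM7SF2, FADS2, and ACAT2 lie on chromosomes whose genes were higher as a whole in double-KO cells. With the chromosome medians taken off, the differences of ACAT2 were 0.11 and 0.07, those of DHCR7 0.16 and 0.18, and those of TM7SF2 0.15 and 0.18 against CGN-KO and CGNL1-KO cells, and none of these passed. FADS2 was then at 0.03 against CGNL1-KO cells, and MVK and ELOVL6 against CGN-KO cells no longer passed (0.21 and 0.22).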

How the results depend on the processing

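No called change of the 31 genes reversed. Of 60 called changes, 472 of 500 values under alternatives other than leaving out a library kept their call and 28 lost it. Of 720 values with a library left out, 639 kept it and 81 lost it. The calls that held under every alternative number 15 of 22 in double-KO, 8 of 10 in CGN-KO, and 5 of 10 in CGNL1-KO cells against WT. On the recovered reads edgeR called 10, 10, and 22 of the 31 genes and DESeq2 12, 11, and 22 in CGN-KO, CGNL1-KO, and double-KO cells against WT. CGN-KO against WT had 10 calls, and 16 with the replicate block. CGNL1-KO against WT had 10, and 6 with only the genotypes compared. CGN-KO against CGNL1-KO had 0, 2 with the replicate block, and 3 with the block and only these libraries (LSS, SREBF1, and SC5D, a fit chosen after seeing the data). Double-KO against CGN-KO had 7, 11 with only the genotypes compared, and 2 with chromosome medians taken off. The replicate block moved no other count by over 1.5 times. It left out the unnumbered library. With each library left out in turn, the calls against WT ranged from 16 to 23 in double-KO, from 8 to 11 in CGN-KO, and from 5 to 11 in CGNL1-KO cells. The other counts were 0 to 1 for CGN-KO against CGNL1-KO, 5 to 11 for double-KO against CGN-KO, 8 to 13 for double-KO against CGNL1-KO, and 15 to 23 for the test among 4 genotypes. CGNL1-KO against WT had 5 calls without CGNL1-KO library 3 and 6 without WT library 3, and double-KO against CGN-KO had 11 without CGNL1-KO library 1. The test among 4 genotypes had 15 without WT library 2, the unnumbered double-KO library, or double-KO library 3. Taking the chromosome median off genes outside the 31 was chosen after seeing the data. The causes were not tested. Each KO genotype is 1 line, most changes are below 1.5-fold, and the read counts limit only low genes such as PMVK.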

Other observations

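Fatty acid oxidation, the opposite arm of fatty acid metabolism, was read beside the synthesis genes. Of 16 tested genes, 5 rose in double-KO, 3 in CGN-KO, and 1 in the CGNL1-KO line, with median log2 changes of 0.09, 0.087, and 0.027. Of all tested genes 14.8%, 11.2%, and 6.81% rose and 11.5%, 7.87%, and 3.49% fell, so that the count in the CGNL1-KO line is near the share of all genes. Limma, edgeR, and DESeq2 called 0 of the 16 lower in each line, and 1 was lower in each line at an unadjusted p below 0.05. CPT1A, which brings long fatty acids into mitochondria, rose by 0.30 in double-KO and 0.25 in CGN-KO cells (limma adjusted p = 0.00293 and 0.0143). ECI1, an isomerase of unsaturated chains, rose by 0.42 and 0.33, and ACADVL, the dehydrogenase of long chains, rose by 0.24 in CGN-KO and 0.17 in the CGNL1-KO line. ETFB, which takes electrons from these dehydrogenases, rose by 0.36 in double-KO cells. CPT1A lies on the chromosome that holds DHCR7 and ETFB on that of ACAT2. With the chromosome median taken off, CPT1A was at 0.0033 in double-KO and 0.16 in CGN-KO cells and ETFB at 0.16 in double-KO cells, and none of these passed. ECI1 and ACADVL were still called.

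The non-sterol branch, which takes farnesyl diphosphate to prenylated proteins, dolichol, and ubiquinone, had call counts near the shares of all genes. Of 15 tested genes, 1 rose and 1 fell in double-KO cells and 1 fell in CGN-KO cells, with medians of 0.0082 and -0.068, beside 14.8% and 11.5% of all genes in double-KO and 7.87% lower in CGN-KO cells. In the CGNL1-KO line limma, edgeR, and DESeq2 called 0 of 15, and 0 had an unadjusted p below 0.05. RCE1, the protease that trims prenylated proteins, rose by 0.42 in double-KO cells, where GGPS1, the synthase of geranylgeranyl diphosphate, fell by 0.24. NUS1, a subunit of the dolichol synthase, fell in CGN-KO cells by 0.21. RCE1 lies on the chromosome that holds DHCR7, and with the chromosome median taken off it was at 0.12 and GGPS1 at -0.21, and neither passed.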
